A study of Mus musculus with 2 samples.

Results

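The vascular endothelial growth factor (VEGF) system was followed through the cells of an orthotopic mouse glioblastoma by the UMI counts of 9 genes, 4 ligands (Vegfa, Vegfb, Vegfc and Pgf), 3 receptor tyrosine kinases (Flt1, Kdr and Flt4) and 2 co-receptors (Nrp1 and Nrp2). They were taken by gene symbol from the 19059 genes of each table, and every one of the 9 was present. Tumors had been grown in the brains of female C57BL/6 mice, aged 6 to 8 weeks, from Trp53+/- and Nf1+/- mouse glioblastoma stem cells (mGSCs), so both groups carried the same tumor genotype and had an intact immune system. The mice received either vehicle or 50 mg/kg/day of Xevinapant, a SMAC mimetic that targets the inhibitors of apoptosis BIRC2 and BIRC3, by oral gavage for 7 days. After dissociation, fixed cells were read with the probe-based assay of 10x Genomics, which detects each gene through its own probes. A level is therefore compared here only with the same gene's level in other cells, never with that of another gene.

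Ligands of this family are secreted and act on receptors of neighbouring vessels. VEGF-A, a target of hypoxia-inducible factors (HIFs), binds FLT1 and KDR, and KDR carries most of its growth signal in blood endothelium. PlGF (Pgf) and VEGF-B bind FLT1 alone of the kinases, and FLT1 also acts as a decoy that holds VEGF-A back from KDR. VEGF-C binds FLT4, the receptor of lymphatic and of sprouting endothelium, and also KDR. The neuropilins NRP1 and NRP2 have no kinase of their own, bind VEGF isoforms and class 3 semaphorins, and are found on vessels, neurons and myeloid cells. In glioblastoma, VEGF-A from the hypoxic cells around necrosis is known to drive the abnormal vasculature.

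The genes lie on 7 chromosomes of the GRCm38 (mm10) assembly. Vegfa (ENSMUSG00000023951) is at chr17:46016993-46032369 on the minus strand, Vegfb (ENSMUSG00000024962) at chr19:6982473-6987651 on the minus strand, Vegfc (ENSMUSG00000031520) at chr8:54077606-54187096 on the plus strand and Pgf (ENSMUSG00000004791) at chr12:85166635-85177790 on the minus strand. Flt1 (ENSMUSG00000029648, chr5:147561604-147726011) and Kdr (ENSMUSG00000062960, chr5:75932827-75978458) share chromosome 5 and the minus strand. Flt4 (ENSMUSG00000020357) is at chr11:49609263-49652739, Nrp1 (ENSMUSG00000025810) at chr8:128358604-128503363 and Nrp2 (ENSMUSG00000025969) at chr1:62703285-62818695, all on the plus strand.

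The promoters of the hypoxia-linked ligand and of its kinase receptors are shown because these 3 genes carry the contrast between tumor cells and endothelium described below. Each is the 250 bases before the RefSeq start (GRCm38.p6), 5′ to 3′ on the minus strand. Capitals mark the GC box GGGCGG or its reverse complement CCGCCC, the core letters that SP1-family factors are known to bind.
Vegfa, chr17:46032378-46032627: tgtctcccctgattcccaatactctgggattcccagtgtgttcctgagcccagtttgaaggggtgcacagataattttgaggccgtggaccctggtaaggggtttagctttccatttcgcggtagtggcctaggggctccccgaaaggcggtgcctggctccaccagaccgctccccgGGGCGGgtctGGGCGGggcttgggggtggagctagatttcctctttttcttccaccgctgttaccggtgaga
Flt1, chr5:147726012-147726261: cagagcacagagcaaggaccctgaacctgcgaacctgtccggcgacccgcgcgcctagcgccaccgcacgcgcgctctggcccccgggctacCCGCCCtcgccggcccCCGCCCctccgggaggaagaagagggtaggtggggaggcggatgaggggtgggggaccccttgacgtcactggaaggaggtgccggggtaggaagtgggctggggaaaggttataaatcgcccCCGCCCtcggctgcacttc
Kdr, chr5:75978456-75978705: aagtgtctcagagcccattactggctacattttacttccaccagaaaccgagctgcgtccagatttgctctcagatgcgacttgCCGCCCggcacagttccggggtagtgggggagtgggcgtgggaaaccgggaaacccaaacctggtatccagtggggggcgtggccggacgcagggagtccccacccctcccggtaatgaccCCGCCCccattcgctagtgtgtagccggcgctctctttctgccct
The 9 members had 11 such promoters in the RefSeq table, since Vegfa and Pgf have a second start, and 10 of the 11 held a GC box on either strand, at least 1 for each of the 9 members. Of all 32851 promoters of the same length, 32.7% held one. The member promoters were also rich in G and C, with 59.2% to 76.4% against a median of 52.4% over all promoters, and their GC box count was not set against promoters of like composition. The letters ACGTG on either strand, a form of the HIF site core, were in 1 of the 11, the Vegfa promoter at chr17:46025164-46025413 that is not printed here, against 16.6% of all promoters. The core can also read GCGTG, which was not counted over all promoters. That form or its reverse complement stands in the printed Flt1 and Kdr promoters. A match is a description of letters and no match says only that these letters are not in this window.

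The authors deposited 4 matrices for each of the 2 treatment labels, with 56943 barcodes in all and 71835789 to 300206053 UMIs per matrix, of which 50669 barcodes were kept. In 3 pairs of matrices of a group, the cell makeup differed by a chi-square of 0.739 to 1.52 per degree of freedom, against 6.11 to 55.4 in the 9 other pairs, so each alike pair was counted as 1 sample. This left 3 vehicle samples (vehicle 1 and 3, vehicle 2, vehicle 4) and 2 Xevinapant samples (1 and 2, 3 and 4), and values are listed in this order throughout. The treatment cannot be told apart from the pool or from the batch date, each of which differs between the groups. The labels name total RNA for one group and polyA RNA for the other, and the Xevinapant matrices carry the word Vehicle in their names, where the sample label was followed. A further 1413 barcodes occurred in both a vehicle and a Xevinapant matrix, only between matrices of the same number, with a median 167.5-fold difference in UMIs between the 2 copies. Leaving them out changed no call of a gene described below in the fits where this was run. In endothelial cells the fit then called 59 genes higher and 24 lower of 9714, against 28 and 13 of 9818 with these barcodes kept. The methods name as many mice per group as there are matrices, so a matrix may hold the cells of 1 mouse, but no label says so, and p-values measure the spread between these samples. The fit with each matrix counted as 1 mouse was run beside it. An exact two-sided permutation test of 3 against 2 samples cannot go below 0.2.

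Cells were assigned to a class by marker UMIs, with at least 3 markers of 1 list and more than of any other, and no VEGF gene was in a list. A cell led by the tumor list also needed under 3 markers of every other list, and otherwise met no gate. The gates held 39144 tumor cells, 319 endothelial cells, 59 pericytes and mural cells, 647 fibroblasts, 1015 macrophages, 199 microglia, 192 monocytes, 329 neutrophils, 179 T and NK cells, 56 dendritic cells, 45 B cells and 160 erythroid cells, while 8325 cells met no gate. Tumor cells were divided into 9267 hypoxia-gated, 6432 AC-like (astrocyte-like), 2343 NPC-like (neural progenitor-like) and 21102 other cells. All 9 endothelial markers and all 8 mural markers were highest in their own class, as were 6 of 8 markers for both fibroblasts and macrophages and 5 of 7 for microglia. The tumor marker list stood in endothelial cells at 35.6% (vehicle) and 21.7% (Xevinapant) of its tumor cell level, against 7.85% and 4.48% in fibroblasts and 5.12% and 3.42% in macrophages. Levels below are UMIs of a gene for each 1000000 UMIs of the class (CPM). In these summed counts a lower level per cell and fewer cells of a subtype within a class cannot be told apart.

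The 9 genes differed in the classes where their level was highest. Vegfa was spread over tumor, stromal and myeloid cells, and by its mean over the 5 samples it was highest in hypoxia-gated tumor cells. In single samples neutrophils of vehicle 4 (1684 CPM of Vegfa) and erythroid cells of Xevinapant 1 and 2 (1775 CPM) stood above the hypoxia-gated cells of the same sample. The levels of Vegfc were highest in endothelial cells and fibroblasts, and those of Pgf in mural cells, fibroblasts and endothelial cells, against means of 4.03 CPM or less for both in every tumor state. The 3 kinases had their highest means in endothelial cells, and both neuropilins in endothelial cells, mural cells and macrophages. For Nrp2, NPC-like tumor cells (179 CPM) came next, above microglia (164 CPM), and neutrophils were low in both.

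**Figure D1:**
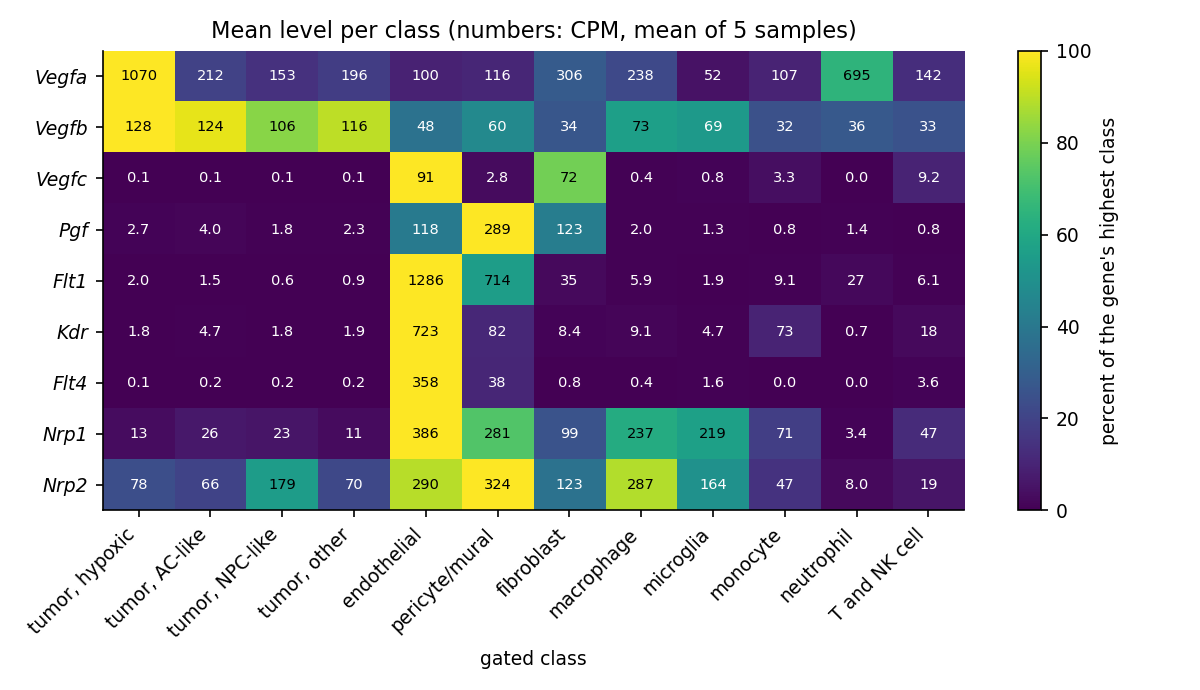
Mean level of each VEGF gene (rows) in 12 of the 15 gated classes (columns), with the number in each cell in CPM (mean of 5 samples) and the colour as percent of that gene's highest class shown. Flt1, Kdr and Flt4 peak in endothelial cells (1286, 723 and 358 CPM), Vegfa in hypoxia-gated tumor cells (1070 CPM), and Pgf and Nrp2 in mural cells.

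Vegfa separated the tumor states. In hypoxia-gated tumor cells it stood at 966, 835 and 743 CPM in the vehicle samples and at 1639 and 1166 CPM in the Xevinapant samples. In other tumor cells the values were 173, 143 and 134 CPM in vehicle and 313 and 219 CPM in Xevinapant. Every hypoxia-gated value lay above every value of the other tumor cells. AC-like cells (155 to 300 CPM over the 5 samples) and NPC-like cells (119 to 243 CPM) overlapped with other tumor cells.

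Outside the tumor cells, Vegfa was detected in several classes at lower depth. Neutrophils held 639, 0 and 1684 CPM in the vehicle samples, from 27, 0 and 28 UMIs, and 556 and 598 CPM in the Xevinapant samples, from 169 and 86 UMIs. The vehicle value of 0 came from 8 cells and allows up to 343 CPM (3 UMIs). After thinning each cell to 1000 UMIs, 31.8% of neutrophils had a Vegfa UMI (41.5% unthinned), against 5.58% of microglia (16.8% unthinned) and 53.8% of hypoxia-gated tumor cells (94% unthinned). These shares cover the 277 neutrophils, 197 microglia and 9254 hypoxia-gated cells with 1000 UMIs or more. Macrophages stood at 264, 261 and 281 CPM in vehicle and 190 and 192 CPM in Xevinapant, and microglia between 11.2 and 78.1 CPM. Erythroid cells, red blood cell precursors and remnants with a median of 884 UMIs in vehicle and 1124 UMIs in Xevinapant, held 485, 319.9 and 329 CPM of Vegfa in vehicle and 1775 and 1024 CPM in Xevinapant. The tumor marker list was at 33.9% and 21.2% of its tumor cell level in these cells, and its part in the Vegfa value was not tested.

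Vegfb, the FLT1 ligand linked to fatty acid handling in muscle and heart, was the most even of the ligands. Its means ran from 106 to 128 CPM in the 4 tumor states, from 32.0 to 72.6 CPM in endothelial, mural, fibroblast and myeloid classes, and the samples within a tumor state spread from 90.5 to 158 CPM. Tumor states overlapped in their ranges over samples, while within a sample the hypoxia-gated value was above that of other tumor cells in 5 of 5 samples, as tested below. In macrophages it was at 69.1, 96.0 and 69.8 CPM (vehicle) and 69.2 and 58.8 CPM (Xevinapant).

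Vegfc, the ligand of FLT4, had its highest levels in endothelial cells and fibroblasts. Endothelial cells held 43.3, 88.0 and 108 CPM in vehicle and 118 and 100.1 CPM in Xevinapant, and fibroblasts held 62.8, 114 and 38.3 CPM and 78.0 and 66.4 CPM. The ranges of these classes overlapped. Macrophages and microglia held at most 1 Vegfc UMI in a sample. Of the 9254 hypoxia-gated tumor cells with 1000 UMIs or more, 0.162% had a Vegfc UMI unthinned, against 37.7% of 289 such endothelial cells. The tumor cells were nevertheless the deeper ones (median 16235 and 17371 UMIs, against 5629 and 4302 UMIs in endothelial cells).

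Pgf, which encodes placental growth factor, had its highest levels in the same classes and in mural cells. Endothelial cells held 54.4, 83.6 and 15.6 CPM in vehicle and 137 and 300.4 CPM in Xevinapant. Fibroblasts held 40.4, 10.3 and 113 CPM in vehicle and 252 and 196 CPM in Xevinapant. In both classes each Xevinapant value was above each vehicle value (exact permutation p = 0.2, the smallest possible). The share of all genes with this order is not given here. Mural cells ranged from 41.2 to 962 CPM of Pgf, and the highest value rested on 29 UMIs from the 5 mural cells of vehicle 2.

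Because tumor cells make up most of each sample, the amount of a ligand and its level per class gave different orders. Of all Vegfa UMIs of a sample, 87.8% ± 0.703 (SD, n = 3) lay in gated tumor cells in vehicle and 72.3% ± 11.3 (SD, n = 2) in Xevinapant. The single samples ran from 87.1% to 88.5% and from 64.3% to 80.2%, so the groups did not overlap (exact permutation p = 0.2, the smallest possible). Cells that met no gate took up most of the difference, with 11.0% to 12.1% of Vegfa UMIs in vehicle and 18.7% and 32.0% in Xevinapant, and their tumor marker level was 82.9% and 85.3% of that of tumor cells. By the gate rule, cells led by the tumor list but with 3 or more markers of another list fall among them. The part of such cells in the difference was not tested. Hypoxia-gated cells alone held 59.6% ± 4.92 (SD, n = 3) in vehicle and 52.8% ± 3.26 (SD, n = 2) in Xevinapant (exact permutation p = 0.4), and this direction turned with a gate at 4 markers. Endothelial, mural and fibroblast cells together held 0.296% and 1.40% of Vegfa UMIs.

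For Pgf the source was mixed and differed more between the groups. Gated tumor cells held 60.6% to 70.7% of Pgf UMIs in the vehicle samples and 15.6% and 34.6% in the Xevinapant samples. Endothelial, mural and fibroblast cells held 16.7% ± 7.89 (SD, n = 3) and 59.6% ± 18.2 (SD, n = 2), a difference of 42.9 percentage points without overlap (exact permutation p = 0.2). In Xevinapant 1 and 2, fibroblasts alone held 64.0% of the Pgf UMIs, against 20.2% in Xevinapant 3 and 4. Fibroblasts were 0.388% to 0.867% of kept cells in vehicle, 3.67% in Xevinapant 1 and 2 and 0.976% in Xevinapant 3 and 4, and the part of cell number in the Pgf source was not tested. Of the Vegfc UMIs, endothelial cells held 39.2% to 54.6% in vehicle and 19.6% and 38.7% in Xevinapant, and fibroblasts 12.8% to 35.4% and 32.4% and 60.6%.

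**Figure D2:**
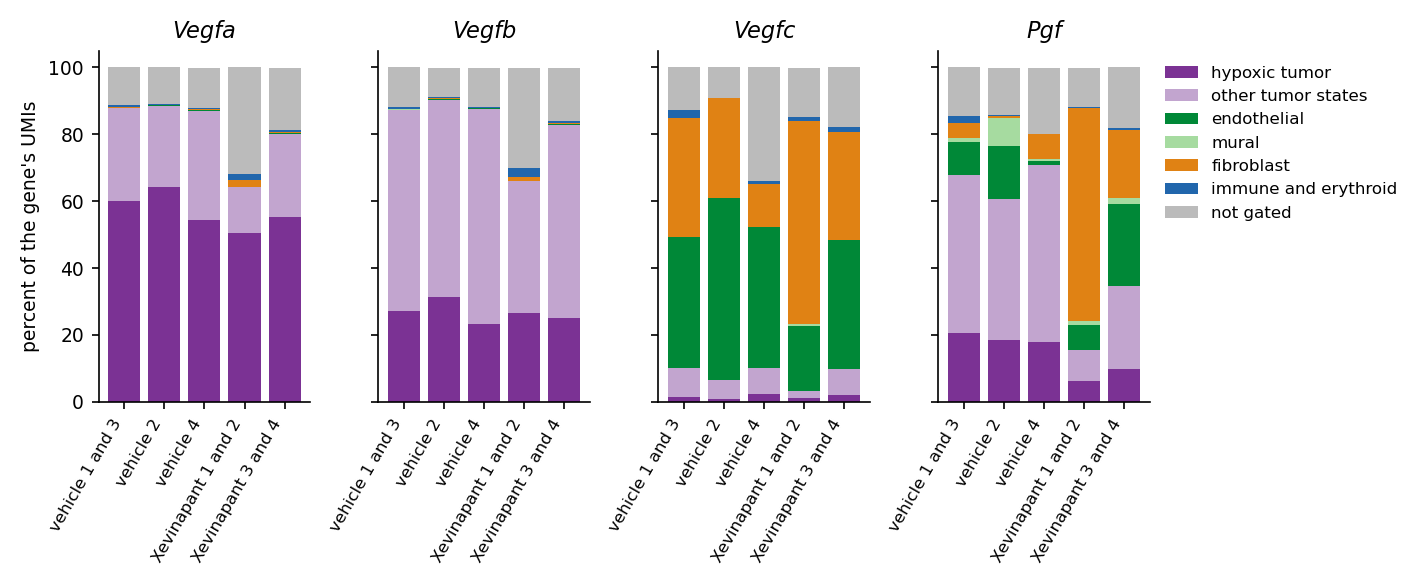
Share of each ligand's UMIs (percent, y axis) by class in the 5 samples (bars), stacked from hypoxia-gated tumor cells at the bottom to cells that met no gate at the top. Tumor cells fill most of each Vegfa and Vegfb bar, endothelial cells and fibroblasts together most of each Vegfc bar, and the fibroblast part of Pgf reaches 64.0% in Xevinapant 1 and 2.

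Among the receptors, Flt1 and Kdr marked the endothelial gate although neither was used in it. Flt1 stood at 916, 1207 and 1305 CPM in vehicle and 1415 and 1586 CPM in Xevinapant endothelial cells, and mural cells followed with 381 to 1692 CPM. The mural gate holds only 5 to 18 cells per sample and 25 to 80 Flt1 UMIs, and its order against endothelial cells is not resolved. Kdr stood at 810, 783 and 743 CPM in vehicle and 717 and 562 CPM in Xevinapant endothelial cells, against 33.2 to 168 CPM in mural cells. For Kdr the endothelial and mural ranges did not overlap. Flt4 stood at 322, 326 and 296 CPM in vehicle and 455 and 394 CPM in Xevinapant, with at most 83.5 CPM in mural cells. By amount, gated tumor cells held 21.6% to 38.5% of Kdr UMIs in vehicle and 18.2% and 35.5% in Xevinapant. Endothelial cells held 37.1% to 67.0% and 44.5% and 51.55%. Of Flt1 and Flt4 UMIs, tumor cells held at most 15.6% and 10.9%. Kdr was at 4.49 to 4.92 CPM in AC-like cells and at most 3.08 CPM in the other tumor states.

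Most endothelial cells carried several of the receptors at once. Of the 319, 287 had a Flt1 UMI, 268 a Kdr UMI and 229 a Flt4 UMI, 205 had all 3, and 11 had none. By sample, all 3 were found in 32 of 45, 28 of 39, 33 of 57, 48 of 74 and 64 of 104 cells. After thinning to 1000 UMIs, 69.6% of the 289 endothelial cells of that depth or more had a Flt1 UMI (92.7% unthinned), against 0 of 964 macrophages (2.28% unthinned). The thinned 0 allows a share of up to 0.311% of cells with a UMI at that depth and does not limit how many express the gene. Macrophages had a median of 4982 UMIs in vehicle and 6337 in Xevinapant. Prox1, the transcription factor that defines lymphatic endothelium, had a UMI in 37 endothelial cells, at 8.8 to 25.6 CPM, but at 60.8 to 112 CPM in the 4 tumor states. Of these 37 cells, 34 also had a Flt4 UMI, as had 229 of all 319 endothelial cells. The tumor marker list stood in endothelial cells at 35.6% (vehicle) and 21.7% (Xevinapant) of its tumor cell level. The part of tumor RNA in the Prox1 value was not tested. Lyve1 was at 1.42 to 43.3 CPM in endothelial cells, against means of 0.067 to 0.16 CPM in tumor states and 51.7 CPM in macrophages. Pdpn was at 8.95 to 45.5 CPM, Reln at 0.902 to 5.87 CPM and Ccl21a at 0 CPM in endothelial cells. As these markers diverged, the Flt4-bearing cells are called endothelial and given no lymphatic name. Whether some of them are lymphatic was not tested.

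The neuropilins had a broader range of carriers. Nrp1 stood at 387, 364 and 399 CPM in vehicle and 486 and 295 CPM in Xevinapant endothelial cells. In macrophages Nrp1 was at 208, 227 and 185 CPM in vehicle and 303 and 264 CPM in Xevinapant, and in microglia it stayed between 203 and 246 CPM in all 5 samples. Nrp2 stood at 265, 261 and 166 CPM in vehicle and 430.1 and 312 CPM in Xevinapant macrophages, and at 209, 232 and 253 CPM and 482 and 272 CPM in endothelial cells. Endothelial cells and macrophages overlapped in both neuropilins, although all vehicle endothelial values of Nrp1 lay above all macrophage values. After thinning, 23.2% of macrophages had a Nrp1 UMI and 27.6% a Nrp2 UMI, against 0.361% and 0.722% of neutrophils.

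By amount, gated tumor cells held 57.8% to 62.4% of Nrp1 UMIs in the vehicle samples and 28.1% and 60.9% in the Xevinapant samples. For Nrp2 they held 81.5% to 87.05% in vehicle and 45.8% and 80.7% in Xevinapant. In tumor cells the neuropilins separated the states. Nrp2, which guides axons and migrating neural precursors as a semaphorin receptor, was at 154, 156 and 161 CPM in vehicle and 161 and 261 CPM in Xevinapant NPC-like cells. Every NPC-like value lay above every AC-like (51.1 to 86.3 CPM), hypoxia-gated (48.3 to 115 CPM) and other (51.3 to 87.4 CPM) tumor value. Nrp1 was highest in AC-like and NPC-like cells by mean (25.6 and 22.5 CPM), and every AC-like value (17.4 to 35.4 CPM) lay above every hypoxia-gated (7.87 to 15.8 CPM) and other (7.56 to 15.4 CPM) tumor value, whereas NPC-like cells (13.7 to 41.2 CPM) overlapped with all of these. Outside tumor and endothelium, Kdr was also found in few-cell classes, such as dendritic cells (0 to 161 CPM, with at most 8 UMIs in a sample) and monocytes (8.2 to 200.3 CPM), which hold too few cells for a comparison.

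Whether hypoxia-gated tumor cells differed from other tumor cells of the same sample was tested with the sample as a block (edgeR quasi-likelihood test, Benjamini-Hochberg adjustment, called at an adjusted p of 0.05 or less). Of 13888 genes, 7224 (52%) were called, so a call by itself says little about a VEGF gene, and the sizes carry the result. Vegfa was higher by 2.51 ± 0.032 on the log2 scale (SE, adjusted p = 2.0e-11), and the ratio of its 2 levels was 5.59, 5.85 and 5.53 in the vehicle samples and 5.24 and 5.32 in the Xevinapant samples. Vegfb was higher by 0.21 ± 0.027 (adjusted p = 0.00013), with ratios of 1.04 to 1.16. In all, 6 of the 8 members tested were called higher and 0 lower; Vegfc was too low for the test. Hypoxia-gated cells were deeper, with medians of 16235 and 17371 UMIs against 9009 and 8021 UMIs in other tumor cells, and with cells thinned to 5000 UMIs the Vegfa difference was 3.06 (adjusted p = 8.8e-13). Thinning left out tumor cells under 5000 UMIs and gated the states again on the thinned counts. Depth, cell choice and gate thus changed together in the thinned values.

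The 4 other calls were small in size or in level. Flt1 was higher by 1.07 ± 0.18 (adjusted p = 0.00082) between levels of 0.740 to 1.1 CPM in other tumor cells and 0.889 to 2.49 CPM in hypoxia-gated cells. With thinned cells it was 2.06. Nrp1 was higher by 0.22 ± 0.070 (adjusted p = 0.024), Nrp2 by 0.18 ± 0.056 (adjusted p = 0.020) and Pgf by 0.31 ± 0.11 (adjusted p = 0.040). Nrp1 lost its call without vehicle 2 (0.21) or Xevinapant 3 and 4 (0.15), Nrp2 without vehicle 1 and 3 (0.16) or vehicle 4 (0.10), and Pgf without any sample but Xevinapant 3 and 4 (0.25 to 0.33). With thinned cells Nrp1 was at 0.46, Nrp2 at 0.49 and Pgf at 0.58, where Pgf lost its call. Nrp2 was lower in hypoxia-gated cells of Xevinapant 1 and 2 (48.3 against 51.3 CPM). For Nrp2 the vehicle samples alone gave 0.27 (adjusted p = 0.0058) and the Xevinapant samples alone 0.05 (adjusted p = 0.47). Kdr (0.01 ± 0.14, adjusted p = 0.94) and Flt4 (-0.73 ± 0.34, adjusted p = 0.096) were not called.

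**Figure D3:**
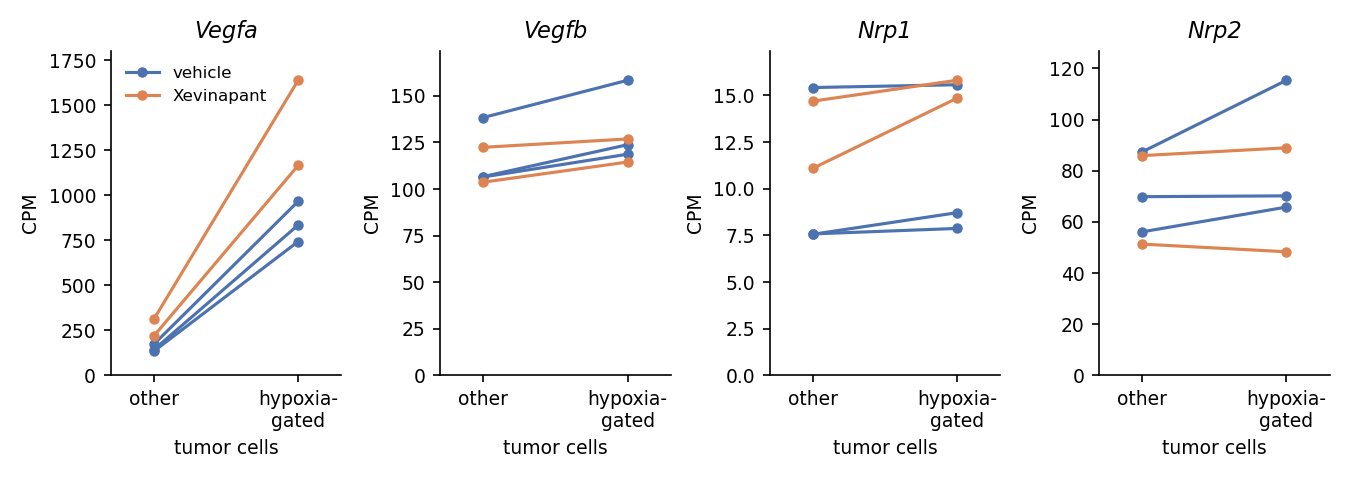
Levels of Vegfa, Vegfb, Nrp1 and Nrp2 (CPM, y axis from 0) in other and in hypoxia-gated tumor cells, with 1 line per sample (blue vehicle, orange Xevinapant). The Vegfa lines all rise, by 5.24 to 5.85 times, whereas the Vegfb lines rise by 1.04 to 1.16 times and 1 Nrp2 line falls.

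The hypoxia gate was itself built from hypoxia-response genes (Ndrg1, Ankrd37, Egln3, Car9, Adm, Bnip3, Pfkfb3 and Pfkfb4). Higher HIF targets in these cells, Vegfa among them, thus follow in part from the gate. The other genes of the HIF pathway are given as a scale for the Vegfa value and not as independent support. Of 20 HIF targets that were not used in the gate, 20 were called higher in hypoxia-gated cells, with a median log2 difference of 1.39 against -0.01 over all genes. P4ha2 (3.02), Ero1l (2.79), Slc2a1 (2.71) and Ddit4 (2.06), which act in collagen hydroxylation, disulfide formation, glucose uptake and mTOR inhibition, had the largest differences, and the 2.51 of Vegfa fell between Slc2a1 and Ddit4. As 52% of all genes were called in this comparison, the counts of the following lists say little by themselves. Of the 6 HIF regulators, 4 were called higher. The VEGF receptor signalling list had 13 of 22 genes higher and 1 lower (median 0.11), with Cav1 (1.29), Shb (1.03), Map2k1 (0.70) and Mapk3 (0.39) highest and Akt1 lower (-0.16). Of the semaphorins and plexins, ligands and partners of the neuropilins, 3 of 11 were called higher and 3 lower, with Sema3b at 0.24 and Sema3c at -0.80. Of the 15 endothelial VEGF response and tip cell genes, 7 were called higher and 0 lower (median 0.21), with Apln, the ligand of the endothelial receptor APLNR, at 2.06.

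Macrophages were divided by Arg1, the arginase of tumor-associated macrophages. Arg1 was itself 1 of the 8 macrophage gate markers, so an Arg1-positive cell needed fewer further markers to enter the gate. Vegfa was at 306, 148 and 600 CPM in Arg1-positive cells of the vehicle samples and at 218, 361 and 65.8 CPM in Arg1-negative cells, and at 209 and 301 CPM against 131 and 93.4 CPM in the Xevinapant samples. It was thus higher in Arg1-positive cells in 4 of 5 samples, with vehicle 2 the other way (26 and 72 UMIs). Over all 5 the log2 difference was 1.01 ± 0.34 (edgeR, adjusted p = 0.063) and was not called. Leaving out 1 sample at a time gave 0.66 to 1.40, the highest without vehicle 2 (edgeR adjusted p = 0.00032, 13.3% of all genes called). The test called 1073 of 8179 genes (13.1%) and 0 of the 5 members tested, with 2 members at an unadjusted p under 0.05, as had 25.1% of all genes; the other, Nrp1, was at -0.39 ± 0.17 (adjusted p = 0.17). Of the HIF targets 15 of 19 were called higher in the Arg1-positive cells, led by Slc2a1 (1.79), Plod2 (1.63), Ero1l (1.31) and Pgam1 (1.22), and the HIF subunit gene Hif1a by 1.13. Of the VEGF signalling genes Cav1 (3.34) and Map2k1 (0.72) were higher and Prkcb (-0.82) and Vav2 (-0.73) lower, as was Insr (-0.66) of the VEGF response list.

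The treatment was then compared class by class, with counts summed per sample and tested over all genes by edgeR. Vegfa was higher in each Xevinapant sample than in each vehicle sample in hypoxia-gated, AC-like and other tumor cells, fibroblasts and erythroid cells. The same held in the sparse monocyte, dendritic and B cell gates, whereas macrophages were lower. In erythroid cells the log2 fold change was 1.96 ± 0.54 (SE, edgeR adjusted p = 0.35). Such an order of 3 and 2 samples has an exact permutation p of 0.2, and the share of all genes with it is not given here. Of the VEGF genes 0 were called in any class. The percentage of all genes called was 0 in all kept cells, in hypoxia-gated, AC-like and other tumor cells, fibroblasts, microglia, neutrophils and monocytes, 0.00796 in NPC-like cells, 0.418 in endothelial cells, 0.077 in macrophages, 0.166 in erythroid cells and 0.0876 in T and NK cells. At an unadjusted p under 0.05 there were 4 of 9 members in all kept cells, where 16.3% of all genes passed, and 5 of 9 in endothelial cells (13.7% of all genes), 4 of 7 in fibroblasts (8.42%) and 3 of 5 in macrophages (10.6%). There was 1 member in each of hypoxia-gated (11.5% of all genes), AC-like (9.56%), other tumor (9.19%) and erythroid cells (5.79%), and 0 in NPC-like cells (6.01%) and microglia (6.12%).

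The number of calls depended on the tool and on what was counted as a sample. DESeq2 called 1 member in other tumor cells (Vegfa, adjusted p = 0.030), where it called 0.934% of all genes, and 1 in fibroblasts (Nrp2, adjusted p = 0.028), where it called 0.356%. It called 0 members in all kept cells (4.51% of all genes called), hypoxia-gated (1.3%), AC-like (0.689%) and NPC-like cells (0.247%), endothelial cells (1.14%), macrophages (0.363%), microglia (0%) and erythroid cells (0.497%). With each matrix as 1 mouse, edgeR called Vegfa in all kept cells (adjusted p = 0.046, 9.4% of all genes called), Pgf in endothelial cells (adjusted p = 0.036, 1.63%) and Nrp2 in fibroblasts (adjusted p = 0.034, 0.169%). Without Xevinapant 3 and 4 it called 3.06% of all genes in all kept cells.

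Over all kept cells Vegfa stood at 393, 366 and 283 CPM in vehicle and at 796 and 487 CPM in Xevinapant, a log2 fold change of 0.83 ± 0.24 (SE, adjusted p = 0.25). Without Xevinapant 1 and 2 this fell to 0.41 (adjusted p = 0.94), and without Xevinapant 3 and 4 it was 1.12 (adjusted p = 0.049), so 1 sample sets much of the value. Pgf was at 3.0, 3.4 and 4.5 CPM and at 10.5 and 5.3 CPM (1.05 ± 0.38, adjusted p = 0.27), and without Xevinapant 1 and 2 its change was 0.44. Vegfc (1.34 ± 0.54, adjusted p = 0.29) and Nrp1 (0.72 ± 0.27, adjusted p = 0.27) had the same lean, with Nrp1 at up to 25.2 CPM in vehicle and 25.8 and 40.2 CPM in Xevinapant. Without Xevinapant 1 and 2, the Vegfc change was 0.30 and the Nrp1 change 0.35. Vegfa, Vegfc, Pgf and Nrp1 were each higher in both Xevinapant samples than in every vehicle sample (exact permutation p = 0.2, the smallest possible). The share of all genes with this order is not given here. The levels of Flt1, Kdr, Flt4, Vegfb and Nrp2 overlapped between the groups.

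Within tumor cells the Vegfa change lay above 0 in each state. It was 0.70 ± 0.21 in hypoxia-gated cells (adjusted p = 0.41), 0.58 ± 0.16 in AC-like cells (adjusted p = 0.49), 0.42 ± 0.28 in NPC-like cells (adjusted p = 0.82) and 0.77 ± 0.18 in other tumor cells (adjusted p = 0.52). The group means were 848 ± 112 CPM (SD, n = 3) and 1402 ± 335 CPM (SD, n = 2) in hypoxia-gated cells. Without Xevinapant 1 and 2 the change was 0.40 in hypoxia-gated and 0.48 in other tumor cells. The difference of the change between hypoxia-gated and other tumor cells was -0.08 ± 0.30 (interaction, adjusted p = 1, 0% of genes called). This fit had no term for the sample, although both classes came from the same samples, so its SE includes the spread between samples. Hypoxia-gated cells were 20.3% to 24.6% of tumor cells in vehicle and 23.8% and 31.4% in Xevinapant (exact permutation p = 0.4). The 20 HIF targets gave no call in any tumor state, and their median change was 0.07 in hypoxia-gated cells and 0.03 in other tumor cells, near the 0.00 of all genes.

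Macrophages leaned the other way. With 269 ± 10.8 CPM (SD, n = 3) in vehicle and 191 ± 1.42 CPM (SD, n = 2) in Xevinapant, their Vegfa change was -0.50 ± 0.18 (adjusted p = 0.37). It differed from that of other tumor cells by -1.28 ± 0.26 (interaction, unadjusted p = 0.00033, adjusted p = 0.62 over 13502 genes, 0% of them called) and the change in hypoxia-gated cells exceeded it by 1.21 ± 0.30 (unadjusted p = 0.0015, adjusted p = 0.67 over 13464 genes, 0% called). The difference between these cell types is thus not called over all genes, in fits that had no term for the shared sample. Divided by Arg1, macrophage Vegfa overlapped between the groups in both states. Arg1-positive cells held 148 to 600 CPM in vehicle and 209 and 301 CPM in Xevinapant. Arg1-negative cells held 65.8 to 361 CPM in vehicle and 130.5 and 93.4 CPM in Xevinapant. Macrophage Nrp2 was at 231 ± 56.4 and 371 ± 83.2 CPM (0.67 ± 0.25, adjusted p = 0.40) and Nrp1 at 207 ± 20.7 and 284 ± 27.0 CPM (0.45 ± 0.19, adjusted p = 0.43), each without overlap of the groups. The exact permutation p was 0.2 for both, the smallest possible, and the share of all genes with such an order is not given here. Macrophages were 0.676% to 1.56% of kept cells in vehicle and 6.00% and 1.6% in Xevinapant.

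**Figure D4:**
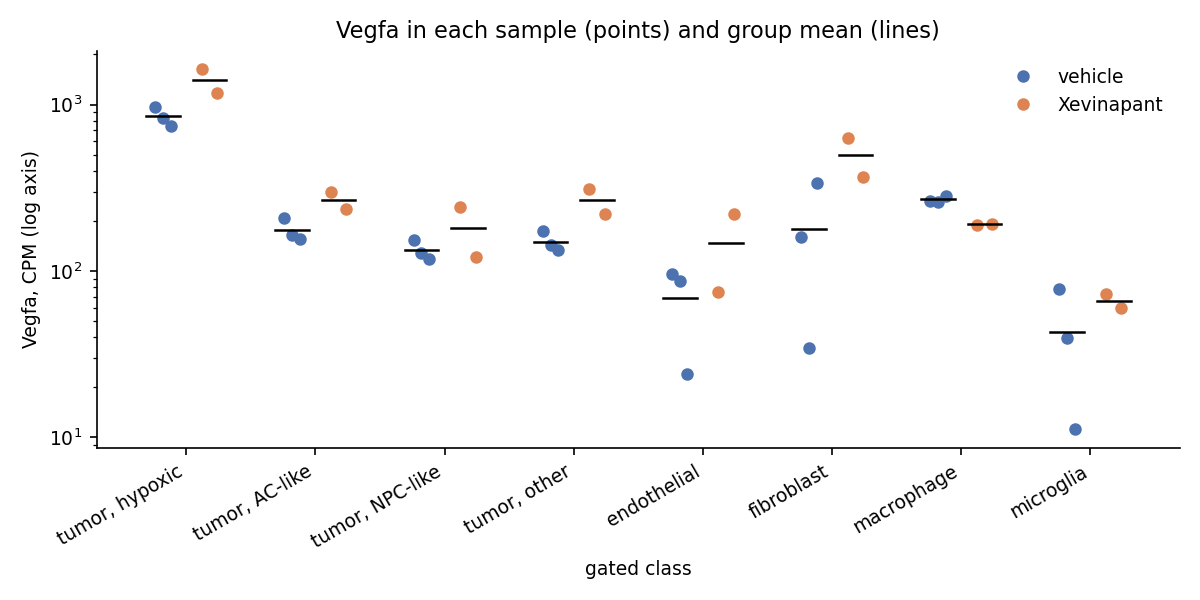
Vegfa level (CPM, log axis) in 8 gated classes, with 1 point per sample (blue vehicle, orange Xevinapant) and a line at each group mean. Both Xevinapant points lie above the vehicle points in hypoxia-gated, AC-like and other tumor cells and in fibroblasts, and below them in macrophages (190 and 192 against 261 to 281 CPM).

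In endothelial cells the largest change among the 9 genes was that of Pgf, 2.15 ± 0.47 (adjusted p = 0.095), which missed the threshold. The share of endothelial cells with a Pgf UMI overlapped between the groups, at 22.2%, 28.2% and 14.0% in vehicle and 24.3% and 29.8% in Xevinapant. The UMIs were concentrated in few cells, with 24 of 39, 40 of 57, 6 of 11, 54 of 92 and 192 of 333 Pgf UMIs in the 3 highest cells of a sample. With the endothelial cells highest in tumor markers left out, the Pgf change was 1.53 (adjusted p = 0.30), and without Xevinapant 1 and 2 it was 2.57 (adjusted p = 0.029, 1.03% of all genes called). Vegfa in endothelial cells was at 96.3, 86.5 and 24.2 CPM in vehicle and 74.6 and 220.1 CPM in Xevinapant, so the groups overlapped (1.16 ± 0.49, adjusted p = 0.33), and without Xevinapant 3 and 4 the change was 0.15. The tumor marker list in endothelial cells was at 35.6% (vehicle) and 21.7% (Xevinapant) of its tumor cell level. Its part in the Vegfa value was not tested.

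Of the endothelial receptors, Flt1, Flt4 and Nrp2 stood higher and Kdr lower in both Xevinapant samples, and Nrp1 overlapped. Each such separation has an exact permutation p of 0.2, the smallest possible, and no share of all genes with it is given. Flt4 was at 315 ± 16.5 CPM (SD, n = 3) and 425 ± 42.8 CPM (SD, n = 2), a change of 0.46 ± 0.16 (adjusted p = 0.23), and Flt1 at 1142 ± 202 and 1501 ± 121 CPM, a change of 0.42 ± 0.19 (adjusted p = 0.36). Nrp2 had a change of 0.72 ± 0.24 (adjusted p = 0.22), which fell to 0.25 without Xevinapant 1 and 2. Kdr lay below vehicle in both Xevinapant samples, at 779 ± 33.4 and 640 ± 110 CPM (-0.26 ± 0.17, adjusted p = 0.54). With the cells highest in tumor markers left out, Flt1 was at 0.15 and Flt4 at 0.28 (adjusted p = 0.76 and 0.63). Endothelial cells were 0.453% to 0.582% of kept cells in vehicle and 0.735% and 0.869% in Xevinapant (exact permutation p = 0.2).

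**Figure D5:**
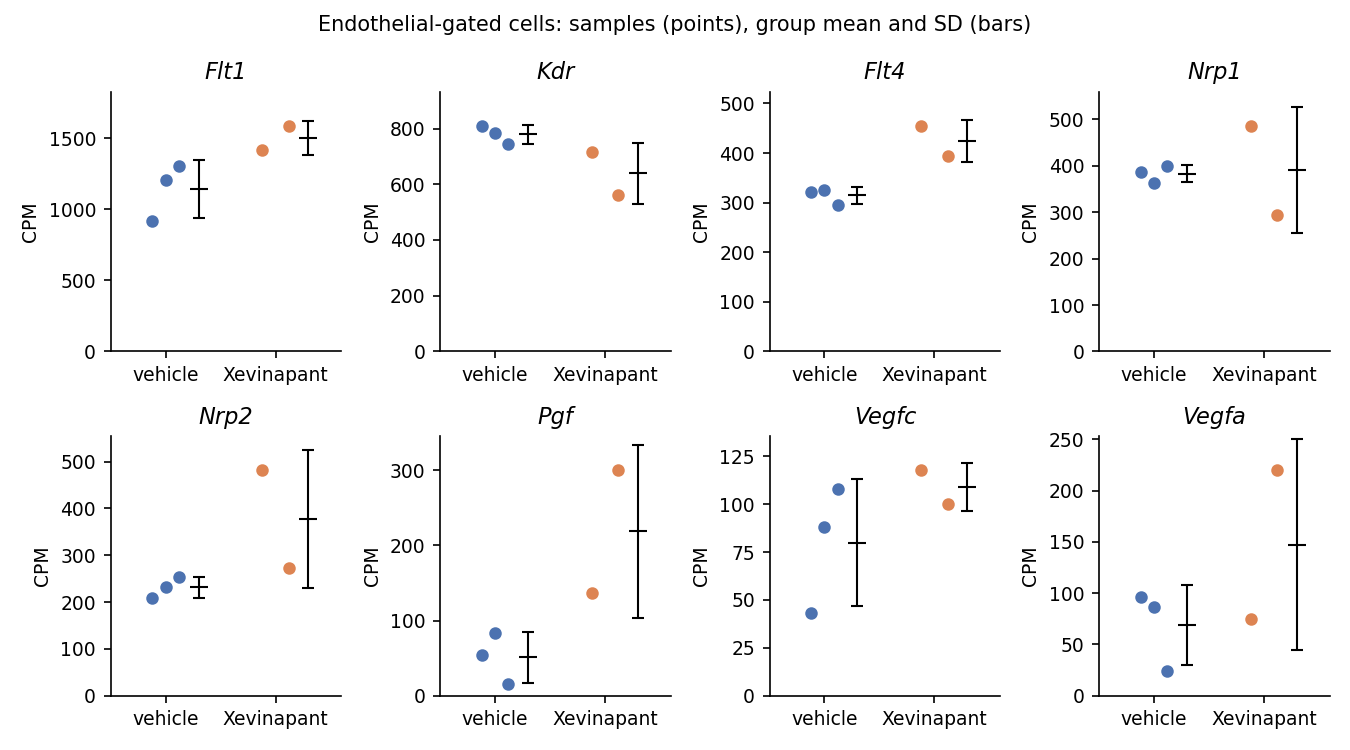
Levels of 5 receptors and 3 ligands (CPM, y axes from 0) in endothelial cells, with 1 point per sample and the group mean ± SD beside it (3 vehicle and 2 Xevinapant samples). Flt1, Flt4, Nrp2 and Pgf lie higher and Kdr lower in both Xevinapant samples, and Nrp1, Vegfc and Vegfa overlap.

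The receptor signalling and semaphorin lists gave 1 call each in endothelial cells. Hspb1, the small heat shock protein phosphorylated below KDR through p38, rose from 23.7, 38.1 and 48.3 CPM to 109 and 115 CPM (1.63 ± 0.26, adjusted p = 0.043). Sema3f, a neuropilin-2 ligand that opposes VEGF, rose from 600.2, 645 and 695 CPM to 1172 and 1170 CPM (0.88 ± 0.15, adjusted p = 0.049). Hspb1 also stood higher in both Xevinapant samples in hypoxia-gated (mean 1.98 and 6.81 CPM in vehicle and Xevinapant), AC-like (1.55 and 5.49 CPM) and other tumor cells (1.21 and 4.82 CPM), where its changes of 1.75, 1.82 and 1.91 were not called (adjusted p = 0.41, 0.51 and 0.52). The 2 calls were 1 of 22 signalling genes and 1 of 8 semaphorins and plexins tested. Hspb1 lost its call without vehicle 1 and 3 (1.38, adjusted p = 0.17), vehicle 2 (1.63, adjusted p = 0.11) or Xevinapant 3 and 4 (1.59, adjusted p = 0.088). Sema3f lost its call without any 1 of the 5 samples (0.82 to 0.95, adjusted p from 0.059 to 0.24). With the cells highest in tumor markers left out, neither was called (Hspb1 1.52, adjusted p = 0.051, and Sema3f 0.61, adjusted p = 0.22). Of the 15 endothelial VEGF response and tip cell genes 0 were called, 13 had a change above 0, and the median was 0.41 against 0.00 over all genes. The same list had medians of 0.50 in hypoxia-gated, 0.44 in AC-like, 0.40 in other tumor cells and 0.41 in all kept cells. Among them Kcne3, a tip cell potassium channel gene, was at 208 to 255 CPM and at 352 and 393 CPM (0.72 ± 0.16, adjusted p = 0.099). Esm1, the tip cell proteoglycan gene induced by VEGF-A, was at 1371 to 2678 CPM and at 1296 and 1466 CPM (-0.56 ± 0.26, adjusted p = 0.38).

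In fibroblasts Pgf and Vegfa varied widely within the vehicle group. Their Pgf stood at 54.6 ± 52.9 CPM (SD, n = 3) and 224 ± 39.6 CPM (SD, n = 2), a change of 1.97 ± 0.49 (adjusted p = 0.30). Leaving out 1 sample at a time gave 1.6 to 3.03, the highest without vehicle 4 (edgeR adjusted p = 0.015, 0.267% of all genes called). Their Vegfa was at 159, 34.5 and 339 CPM in vehicle and 632 and 366 CPM in Xevinapant (1.52 ± 0.58, adjusted p = 0.52). Nrp2 was at 132, 152 and 183 CPM in vehicle and 67.4 and 78.5 CPM in Xevinapant, a change of -1.06 ± 0.22 (edgeR adjusted p = 0.26, DESeq2 adjusted p = 0.028), and Nrp1 at 92.0, 169 and 98.2 CPM and at 65.5 and 72.1 CPM (-0.73 ± 0.30, adjusted p = 0.56). Of 20 HIF targets 0 were called in fibroblasts, while 19 had a change above 0 (median 0.90, against -0.01 over all genes).

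Likeness over the 15 classes was taken as Pearson's r of the mean log2(CPM + 1), as a description over classes that share libraries. The genes most like Vegfa were Fam162a (0.92), Mt2 (0.89) and Phf21a (0.88), and those most like Pgf were Unc5b (0.99), Ecm2 (0.99) and Col5a3 (0.98). For Vegfb they were Fxr1, Trmt1 and Lrrc40 (0.91 to 0.94), and for Vegfc Kcnj15, Cyp2d22 and Tll1 (0.94 to 0.96). Flt1 was most like Hrct1, Tinagl1 and Acer2 (0.97 each), Flt4 most like Ces2e, Pcdh12 and Sox17 (0.98 to 0.99) and Kdr most like Cd300lg, Kctd12b and Trim16 (0.88 to 0.91). Nrp1 was most like Lipo3, Smim20 and As3mt (0.92 to 0.95), and Nrp2 most like Tmem65, Rusc2 and Pdgfa (0.94 to 0.95).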

How the data were processed

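The authors deposited raw UMI counts per gene and cell, 4 matrices per treatment label. Reads were mapped to mm10 with Cell Ranger, version 3.0 per the labels and 7.1.0 per the file headers, and the deposited counts are not normalized. Cells had to show 200 genes or more and no more than 10% of UMIs from mitochondrial genes, and the ratio of log10 gene number to log10 UMI number had to reach 0.8. For this report, a further 3905 barcodes with the highest Scrublet scores (0.8% per 1000 barcodes) were removed. The authors' own doublet removal differed, as it combined calls of Scrublet, DoubletFinder and scDblFinder and names a lower rate. Median depth was 7611 to 12947 UMIs per kept cell and matrix. Gates needed 3 markers. Counts were summed per sample and class, and classes with 10 or more cells in every sample were tested by edgeR 4.0.16 (TMM, filterByExpr, quasi-likelihood test, Benjamini-Hochberg over all genes tested); neutrophils, monocytes and T and NK cells used 4 samples, a choice made after seeing the data. Standard errors are the log2 fold change divided by the square root of F. In simulated counts of other tumor, endothelial and macrophage cells the test was checked after the fits, and the share of changes it recovered is not given here. Alternatives were DESeq2 1.42.0, no TMM, no low-count filter, gates at 2 or 4 markers, cells high in tumor markers left out, no doublets removed, each matrix as 1 mouse, each sample left out (a lone Xevinapant sample is then assumed to vary like the vehicle samples), thinned cells and, chosen after seeing the data, shared barcodes left out. Exact permutation tests used scipy 1.17.1. Named genes are the 9 members, called genes of the pathway lists (up to 4 per direction), and the 3 genes most like each member. Kcne3, Esm1, Prox1, Lyve1, Pdpn, Reln and Ccl21a were named after their values were seen. Olfml3, Ly6c2, Nos3, Eno1 and Ero1a have no row in the tables. Members and lists were chosen with earlier results of these data known. Intervals and floors cover counting error only. Protein sequences were not used here.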

Additional observations from a re-analysis of the deposited data

How the results depend on the processing

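With 3 and 2 samples, sparse classes and a treatment that coincides with pool and batch date, the treatment comparisons are limited, and mural, dendritic and B cells could not be tested. Of the values of VEGF gene counts and shares under the alternatives, 178 stayed near the value given above, 13 moved and 1 reversed. In the treatment comparisons the counts of members called were 0, in fits that called few or no genes. A count that stayed at 0 there says little about stability. Of the other values checked, 375 stayed the same, 29 were weaker, 20 were stronger and 1 reversed. In place of 0 VEGF genes called, DESeq2 called 1 in other tumor cells and 1 in fibroblasts. With each matrix as 1 mouse, 1 was called in each of all kept cells, endothelial cells and fibroblasts. Without the filter on low counts, 1 was called in AC-like cells, where 160 genes were called higher and 96 lower of 17724. In the same setting 3 were called in endothelial cells (298 and 228 of 14428 genes) and 3 in fibroblasts (167 and 178 of 15086 genes). With Arg1 at 2 UMIs, 1 was called in Arg1-positive macrophages (558 and 579 of 8183 genes). The shares for DESeq2 and for each matrix as 1 mouse are given above. Leaving out 1 sample gave 0 to 1 calls in all kept cells, endothelial cells, fibroblasts and Arg1-positive macrophages, 0 in the other classes, and 4 to 5 of the 6 calls in hypoxia-gated cells. The share of Vegfa UMIs in hypoxia-gated cells differed by -6.81 percentage points, and by 4.17 with a gate at 4 markers. The median change of HIF targets in other tumor cells turned from 0.03 to -0.19 without Xevinapant 1 and 2. The cause was not tested. Hspb1 in endothelial cells was not called with doublets kept (adjusted p = 0.052) or each matrix as 1 mouse (0.094), nor Sema3f with doublets kept (0.087) or a gate at 2 markers (0.054), all by edgeR. Vegfa in hypoxia-gated against other tumor cells stayed between 2.25 and 3.06 under all alternatives. No paired analysis was possible because the matrix numbers 1 to 4 stand in no sample label, and the joined samples (1 and 3, 2, 4 against 1 and 2, 3 and 4) cannot be matched by them.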
